A study of Mus musculus with 4 samples.

Results

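Laminin chains and nidogen, the genes Lama2, Lama3, Lama4, Lama5, Lamb1, Lamb2, Lamb3, Lamc1 and Nid1, were followed through the cell classes of mouse skin tumours measured by single-cell RNA sequencing. The rows with these 9 symbols were found in each of the 4 count matrices, which list 31053 genes and a row for the fluorescent marker. The tumours came from LKPR mice (with Lgr5CreER, p53fl/fl and Rosa26-YFP+/+ among their alleles), and all received 4 daily injections of 2.5 mg tamoxifen at postnatal day 28. Tamoxifen recombines these alleles in cells that use the Lgr5 promoter: p53 is lost and a yellow fluorescent protein (YFP) marks the cells and their progeny, so the other cells of a tumour are not recombined. Of the libraries, 2 came from control tumours, for which no injected agent is named, and 2 from tumours of mice given NP137, an antibody against the secreted protein netrin-1, by intraperitoneal injection of 10 mg/kg, starting 4 weeks after tamoxifen and given every 2 days until death. Tumours were seen 7 to 9 weeks after tamoxifen, and all live cells were sorted. The series asks whether blocking netrin-1 acts on the epithelial-mesenchymal transition of the tumour. Nothing in the labels ties each library to its own animal, so a p-value here measures the spread between these 4 samples, which may be technical.

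Laminins are the cross-shaped trimers on which a basement membrane is built, each made of an alpha, a beta and a gamma chain that join inside the cell before secretion. The alpha chain carries the sites that bind integrins and dystroglycan. In skin, the trimer that holds the products of Lama3 and Lamb3 fastens basal keratinocytes to the dermis at hemidesmosomes, whereas trimers that hold the products of Lamb1 or Lamb2 with that of Lamc1 lie around vessels, muscle and nerve as well as under the epidermis. Nidogen, the product of Nid1, binds the gamma chain encoded by Lamc1 and links the laminin network to collagen IV.

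In GRCm38 (mm10), 8 of the genes lie at chr10:26980036-27619758 (Lama2, minus strand), chr10:38965515-39110188 (Lama4, plus), chr2:180176373-180225859 (Lama5, minus), chr12:31265234-31329644 (Lamb1, plus), chr9:108479736-108490530 (Lamb2, plus), chr1:193207699-193343878 (Lamb3, plus), chr1:153218922-153332786 (Lamc1, minus) and chr13:13437551-13512269 (Nid1, plus). RefSeq promoter windows, 250 bases before to 50 bases after a start site in GRCm38.p6, are shown for the beta chains Lamb3 and Lamb1, whose ratio differed between control and NP137 YFP-positive cells, and for Nid1. They run 5′ to 3′ on the plus strand, which is that of each gene, and capitals mark CAGGTG or its complement, the E-box bound by the SNAIL and ZEB repressors of epithelial genes.
Lamb3, chr1:193301993-193302292: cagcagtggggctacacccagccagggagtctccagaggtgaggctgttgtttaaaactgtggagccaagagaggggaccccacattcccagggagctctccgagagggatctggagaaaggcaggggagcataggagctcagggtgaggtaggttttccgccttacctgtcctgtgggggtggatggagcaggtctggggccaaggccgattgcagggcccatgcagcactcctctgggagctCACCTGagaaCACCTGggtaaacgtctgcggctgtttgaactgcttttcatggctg
Lamb1, chr12:31265043-31265342: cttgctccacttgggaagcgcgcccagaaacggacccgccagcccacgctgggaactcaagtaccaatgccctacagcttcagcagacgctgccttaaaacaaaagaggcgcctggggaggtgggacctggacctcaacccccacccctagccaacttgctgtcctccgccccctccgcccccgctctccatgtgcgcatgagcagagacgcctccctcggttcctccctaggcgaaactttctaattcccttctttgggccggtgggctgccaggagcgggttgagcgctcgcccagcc
Nid1, chr13:13437352-13437651: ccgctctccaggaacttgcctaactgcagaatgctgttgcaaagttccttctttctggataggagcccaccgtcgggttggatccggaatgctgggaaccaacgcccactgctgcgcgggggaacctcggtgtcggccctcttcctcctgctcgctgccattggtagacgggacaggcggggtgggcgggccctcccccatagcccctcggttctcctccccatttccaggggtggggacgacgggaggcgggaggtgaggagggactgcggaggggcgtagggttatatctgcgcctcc
This Lamb3 window held 2 CAGGTG matches, which begin 6 bases before and 4 bases after the start site. The other Lamb3 window, chr1:193301744-193302043, held none, and neither did those of Lamb1 and Nid1. Of the windows not shown, that of Lama5 held 2 and those of Lama2 and Lamb2 none. Of 32851 RefSeq windows of this length, 20.2% held a match. The Lamb3 windows held 2 and 5 CpG dinucleotides, against 18 for Lamb1, 20 for Nid1 and a median of 7 over all windows. The windows not shown held 24 for Lama5, 4 for Lamb2 and 1 for Lama2, so CpG number did not separate epithelial from stromal chains. The GC box GGGCGG, searched on both strands and found in 35.7% of windows, had 2 matches before Lamb1, 1 before Nid1 and none in either Lamb3 window. It had 4 matches in the Lama5 window, 1 in that of Lama2 and none in that of Lamb2. Such matches describe letters and show no binding.

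After filtering, 44501 cells were used, 5301 to 14513 per library, with a median of 2352 to 6044 UMIs (unique molecular identifiers, each 1 captured transcript) per cell. Clustering without the laminin and other basement membrane genes among its variable genes gave 37 clusters. In 6 of them, called YFP-positive, 76.3% to 96.0% of cells held a YFP UMI, against at most 36.3% in any other cluster. Classes among the rest were named from marker genes, and 6 clusters were left unnamed. Unnamed clusters 6 (led by Gzme, Gzmd and Mmp13), 7 (Tagln, Actg2 and Acta2) and 14 (Coch and Apod) scored highest for fibroblast markers. Libraries shared 24 to 86 barcodes by pair, at most 0.578%. Cells with Xist UMIs alone made up 27.7% of NP137 1 and cells with Y-linked UMIs alone 16.7%, whereas each other library held mainly one kind. A date-like number in the file names is shared by control 1 and NP137 1, and its meaning is not given.

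Each chain had its own order of cell classes. Levels are CPM, the UMIs of a gene scaled to a common total over the summed UMIs of a class in a library, given for control 1, control 2, NP137 1 and NP137 2 in that order. They come from 3′ ends and compare classes for 1 gene, not genes with each other. The order covers the 7 classes with at least 50 cells in every library, and it is a description with no test. Macrophage or monocyte-like cells, not known as makers of basement membrane, serve as the background from free RNA.

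Among alpha chains, Lama2, the chain of muscle and nerve basement membranes, was highest in fibroblast-like cells in 3 of 4 libraries, at 134, 88.7, 86.0 and 58.4 CPM. Pericyte-like cells held 96.5, 121, 73.2 and 33.5 CPM and led in control 2. They also led by the mean over cells, in which each cell has the same weight. The CPM ranges of both classes overlapped, and both classes stood above the next class, YFP-positive cells, in every library. Unnamed cluster 14 held more Lama2, at 187 to 309 CPM, and the background was 0.529 to 2.33 CPM.

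Lama4, the alpha chain typical of vessels, was highest in endothelial-like cells in 4 of 4 libraries, at 491, 279, 274 and 425 CPM. Fibroblast-like cells held 268, 214, 272 and 205 CPM and pericyte-like cells 228, 197, 193 and 146 CPM. Endothelial-like cells did not overlap with fibroblast-like cells, which did overlap with pericyte-like cells.

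Lama5, an alpha chain of both epithelial and vessel basement membranes, was also highest in endothelial-like cells in 4 of 4 libraries, at 79.1, 87.6, 48.3 and 36.9 CPM. Pericyte-like cells followed in the order at 36.3, 34.6, 33.5 and 13.7 CPM, with no overlap. The order leaves out epithelial-like cells without the tumour label. Among cells thinned to 2000 UMIs, 10%, 5.76%, 3.89% and 7.5% of these (40 cells in NP137 2) held Lama5. The shares in pericyte-like cells were 5.97%, 5.36%, 4.04% and 3.88%. Fibroblast-like cells held 0 to 1.79 CPM, within or below the background of 0.529 to 2.48 CPM.

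Lama3, the alpha chain that anchors the epidermis, lies at chr18:12333819-12583013 on the plus strand and stood on the epithelial side. YFP-positive cells held 34.5, 15.1, 144 and 580.3 CPM and led the 7 classes in 3 of 4 libraries. In control 2, neutrophil-like cells led at 49.6 CPM. Epithelial-like cells without the tumour label, too few in NP137 2 (46 cells) to enter the order, held 53.7, 154, 68.4 and 235 CPM. The background was 3.21 to 8.51 CPM.

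The beta chains divided the classes in a similar way. Lamb1, the widespread beta chain, was highest in endothelial-like cells in 3 of 4 libraries, at 500.2, 329, 222 and 390.0 CPM, and overlapped with fibroblast-like cells at 318, 315, 285 and 217 CPM. YFP-positive cells ran from levels like these down to a fraction of them, at 360.0, 255, 70.9 and 59.1 CPM. Lamb2, the beta chain of muscle and vessel wall, was highest in pericyte-like cells in 3 of 4 libraries, at 175, 226, 183 and 72.2 CPM, ahead of fibroblast-like cells at 142, 94.0, 106 and 80.7 CPM, with overlapping ranges.

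Lamb3, the beta chain of epidermal anchoring, was highest in YFP-positive cells in 3 of 4 libraries, at 52.2, 12.8, 192 and 573 CPM. Epithelial-like cells, which the order leaves out, held 117, 162, 94.3 and 172 CPM, above YFP-positive cells in both controls. Neutrophil-like cells held 46.3, 89.1, 46.4 and 77.1 CPM, above T or NK-like cells at 29.3, 28.9, 30.4 and 27.3 CPM, and both stood above the background of 6.10 to 13.8 CPM in every library.

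Lamb3 overlaps G0s2 and Hsd11b1, which lie on the opposite strand. It also overlaps Gm37650 on the opposite strand and 4930570N18Rik on its own. 4930570N18Rik held at most 3.04 CPM in neutrophil-like cells and 5.09 CPM in T or NK-like cells. G0s2, which inhibits the lipase ATGL, reached 4816, 2627, 3511 and 11028 CPM in neutrophil-like cells and 0.549 to 42.8 CPM in YFP-positive cells. Hsd11b1, which makes active glucocorticoid, held 91.1 to 117 CPM in neutrophil-like cells and 34.5 to 65.4 CPM in T or NK-like cells, but also 34.8 to 254 CPM in fibroblast-like cells, whose Lamb3 was 3.08 to 8.95 CPM. Whether counting used the strand is not given in the sources used here, so Lamb3 reads in neutrophil-like and T or NK-like cells cannot be told apart from reads of these neighbours by strand. In T or NK-like cells, G0s2 stood at 4.51, 0, 45.6 and 70.3 CPM and Hsd11b1 at 65.4, 59.4, 60.8 and 34.5 CPM. Lamb3 there stayed between 27.3 and 30.4 CPM, and the source of its reads was not tested. Lama2, Lama3 and Nid1 also overlap genes on the opposite strand.

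The gamma chain Lamc1, partner of most beta chains, was highest in endothelial-like cells in 3 of 4 libraries, at 438, 304, 258 and 390.0 CPM. Fibroblast-like cells held 269.7, 319.8, 220.3 and 177 CPM and pericyte-like cells 229, 416, 227 and 157 CPM. These 3 classes overlapped in part, and YFP-positive cells held 207, 84.2, 47.4 and 19.9 CPM.

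Nid1 was shared by pericyte-like cells at 531, 420.4, 344 and 442 CPM, fibroblast-like cells at 415, 431, 244 and 535 CPM and endothelial-like cells at 438, 325, 282 and 508 CPM. The order among these 3 was within their spread, and by the mean over cells fibroblast-like cells led. YFP-positive cells stood below all of them in every library, at 222, 176, 21.7 and 5.60 CPM.

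**Figure D1:**
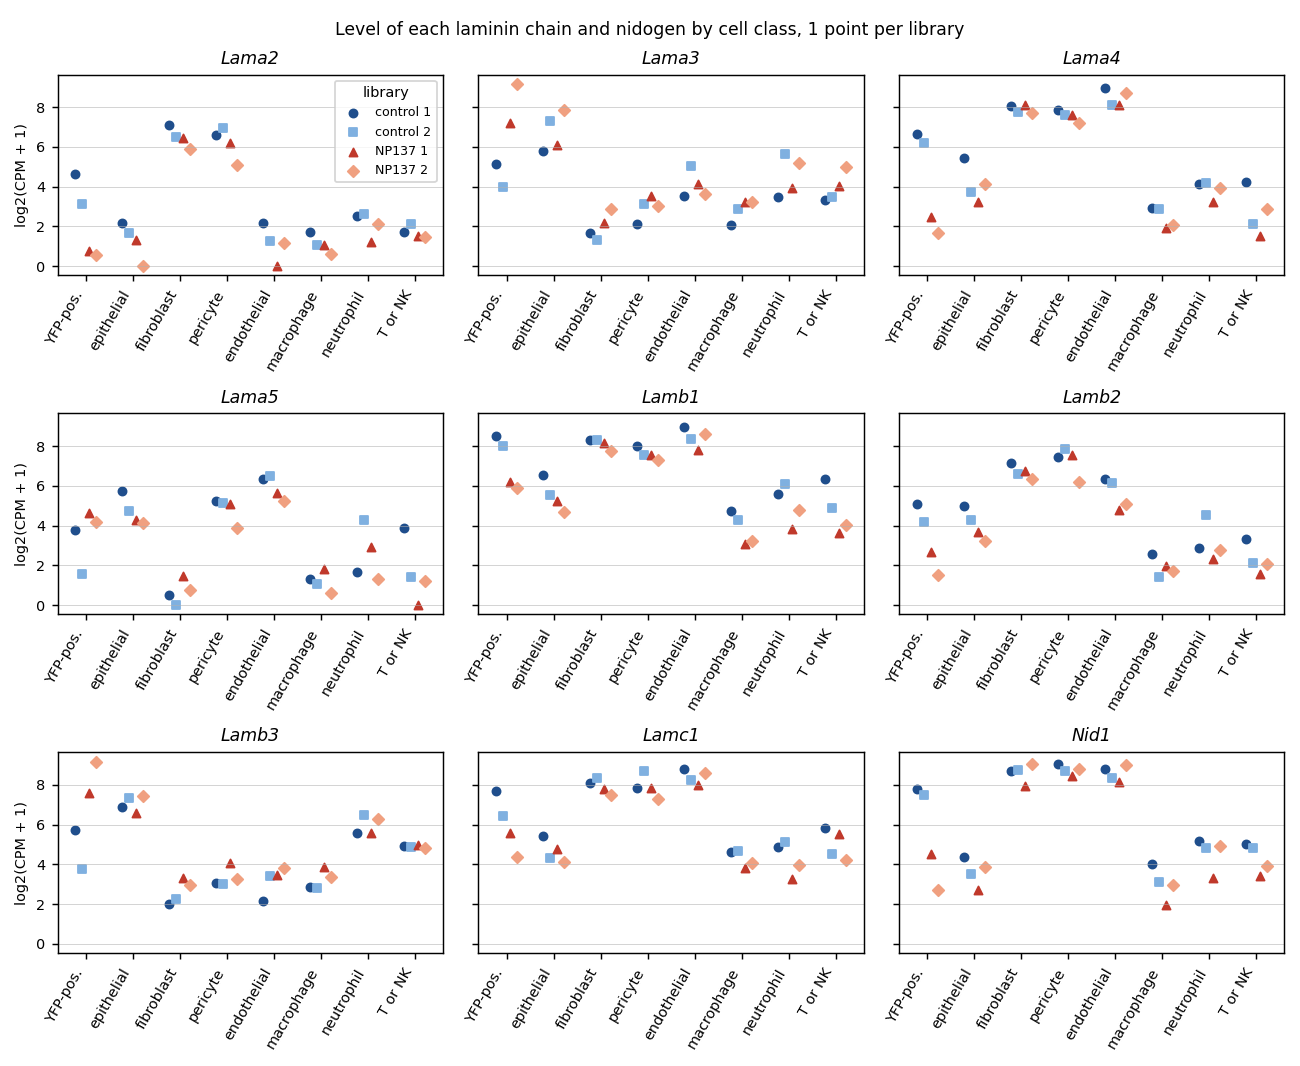
Level of each gene, as log2(CPM + 1), in 8 cell classes, with 1 point per library. Lama3 and Lamb3 stand highest in YFP-positive and epithelial-like cells, Lama4 and Lama5 in endothelial-like cells, and the YFP-positive points of Lama3, Lama4, Lamb3 and Nid1 are spread far apart between libraries.

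Which class supplied a chain depended on how many of its cells a library held as well as on the level per cell. In control 1, YFP-positive cells gave the largest share of the UMIs of all 9 genes, from 55.3% for Lama2 to 91.8% for Lama3. In control 2 they led for 5 genes (Lama4, Lamb1, Lamb2, Lamc1 and Nid1), with 34.5% to 74.1%, and epithelial-like cells without the tumour label gave 71.1% of Lama3, 71.7% of Lamb3 and 48.3% of Lama5.

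In the NP137 libraries, YFP-positive cells still gave 85.6% and 91.1% of Lama3 UMIs, 84.0% and 88.6% of Lamb3 and 72.0% and 61.7% of Lama5. In NP137 1 they also gave the largest share of Lamb1 (41.2%, against 32.4% from unnamed cluster 6) and of Lamc1 (35.9%, against 30.6%). All unnamed clusters together gave 39.7% of Lamb1 and 39.2% of Lamc1 there, and fibroblast-like cells 3.18% and 3.21%. At a finer clustering (Leiden resolution 2), 2303 cells of NP137 1 were named fibroblast-like, against 140 here. The leading class for Lamb1 and Lamc1 in NP137 1 thus depends on how such cells are grouped. In that library unnamed cluster 6 led for Lama2 (48.7%), Lama4 (45.9%), Lamb2 (31.1%) and Nid1 (46.9%). In NP137 2, fibroblast-like cells led for Lama2 (68.6%), Lama4 (46.5%), Lamb1 (32.4%), Lamb2 (54.1%), Lamc1 (39.6%) and Nid1 (50.1%). The 95% Clopper-Pearson interval of the Lamb3 share of YFP-positive cells was 83.1% to 84.9% in NP137 1 and 88.1% to 89.2% in NP137 2, which covers counting error only. These are shares of sorted cells, so digestion and sorting bear on them.

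**Figure D2:**
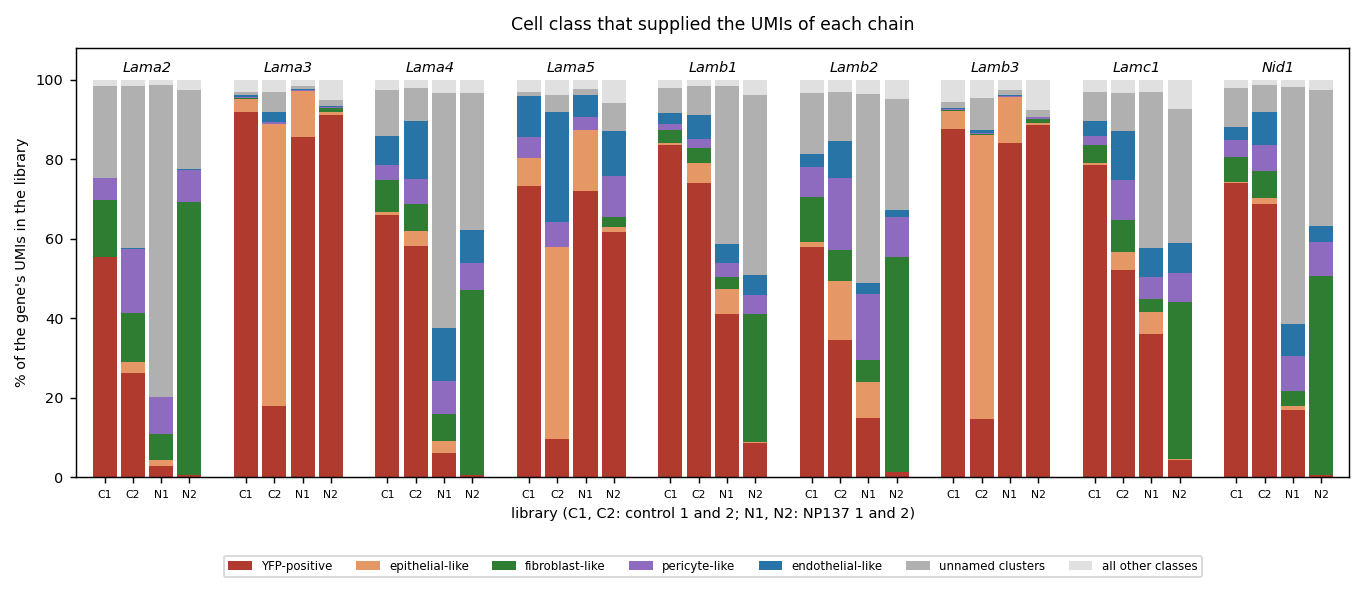
Share of each gene's UMIs, in percent of the library's UMIs of that gene, by the class that held them, as stacked bars for the 4 libraries. YFP-positive cells fill most of the Lama3 and Lamb3 bars in all libraries but control 2. They also fill most of every other bar in control 1, of the Lama4, Lamb1, Lamc1 and Nid1 bars in control 2 and of the Lama5 bar in both NP137 libraries.

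The comparison the series was made for is NP137 against control, and in YFP-positive cells the epithelial chains stood higher and the stromal chains lower in both NP137 libraries. The YFP-positive cells of the groups lay in different clusters: 7.08%, 3.34%, 79.8% and 99.5% of them fell in clusters 3 and 19, whose cells carried epithelial markers, and the rest mainly in cluster 1 (control 1), cluster 16 (control 2) and cluster 20 (NP137 1). The values below are CPM scaled with TMM factors, from UMIs summed over 4423, 1168, 3191 and 951 cells, and the quasi-likelihood test of edgeR was used, with p-values adjusted over 14164 genes by the Benjamini-Hochberg method.

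Lama3 stood at 32.6 and 13.3 in the controls and 151 and 663 in the NP137 libraries, a log2 fold change of 4.15 (SE 0.902, unadjusted p = 0.00594, adjusted p = 0.0929). Its partner Lamb3 stood at 49.3 and 11.3 in the controls and 201 and 655 in the NP137 libraries, a log2 fold change of 3.82 (SE 0.963, unadjusted p = 0.0108, adjusted p = 0.114). Both were higher in 2 of 2 NP137 libraries, with no overlap and a wide gap between NP137 1 and NP137 2. Lama5 stood at 11.97 and 1.75 in the controls and 25.2 and 19.7 in the NP137 libraries, 1.71 (SE 0.895, unadjusted p = 0.115, adjusted p = 0.318) on the log2 scale.

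Lama4 stood at 93.3 and 63.9 in the controls and 4.78 and 2.48 in the NP137 libraries, a log2 fold change of -4.42 (SE 0.464, unadjusted p = 1.94e-04, adjusted p = 0.0527). Lama2 stood at 22.5 and 6.77 in the controls and 0.724 and 0.559 in the NP137 libraries, -4.49 (SE 0.762, unadjusted p = 0.00193, adjusted p = 0.0729) on the log2 scale. The 2 stromal alpha chains were thus lower in both NP137 libraries without overlap. The NP137 values of Lama2 came from 20 and 9 UMIs. Among cells thinned to 2000 UMIs it was detected in 0.134% and 0% of them. In macrophage or monocyte-like cells, the background, the shares were 0.147% and 0.0867%, so the size of its fold change depends on values near the floor.

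Lamb1 stood at 340.5 and 225 in the controls and 74.5 and 67.6 in the NP137 libraries, a log2 fold change of -1.99 (SE 0.303, unadjusted p = 0.00112, adjusted p = 0.0619). Lamb2 stood at 31.3 and 14.9 in the controls and 5.69 and 2.11 in the NP137 libraries, -2.56 (SE 0.656, unadjusted p = 0.0112, adjusted p = 0.116) on the log2 scale. Both beta chains outside the epidermal trimer were lower in 2 of 2 NP137 libraries.

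Lamc1 stood at 196 and 74.4 in the controls and 49.8 and 22.8 in the NP137 libraries, a log2 fold change of -1.89 (SE 0.621, unadjusted p = 0.0286, adjusted p = 0.165). Nid1 stood at 209.6 and 156 in the controls and 22.8 and 6.40 in the NP137 libraries, -3.64 (SE 0.678, unadjusted p = 0.00308, adjusted p = 0.0791) on the log2 scale. None of the 9 genes overlapped between the groups. Control 1 and NP137 1, which share the date-like number, therefore had to differ in the direction of the groups. The part of that number in the differences was not tested. The values of Lamc1 came closest to overlapping among the genes that were lower.

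None of the 9 genes passed an adjusted p of 0.05 by edgeR, which called 1 of 14164 genes, a lower one (0.00706%). At an unadjusted p under 0.05, 2 members were higher and 6 lower, against 10.8% and 12.8% of all genes, 23.7% in either direction. The groups did not overlap for 3 higher and 6 lower members, against 27.7% and 30% of all genes, 57.6% in either direction. DESeq2 called 2 members higher and 6 lower, against 7.05% and 8.95% of all genes, 16% in either direction. The median log2 fold change was -1.99 over the members and -0.03 over all genes tested.

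Marker sums moved with these values. Over 12 epithelial markers the YFP-positive cells held 3276, 2402, 25050 and 25930 CPM, with 9 of 12 higher in both NP137 libraries and Krt1 at 0 in at least 1 library. Over 10 fibroblast markers they held 7945, 5252, 338 and 684 CPM, with 6 of 10 lower in both. Over 10 pericyte markers the sum was 490, 176, 51.8 and 38.2 CPM, with 3 lower and 4 higher in both, and over 12 macrophage or monocyte markers it was 87.8, 13.4, 28.1 and 92.3 CPM. Endothelial markers summed to 30.7 to 66.4 CPM, with Vwf at 0 in at least 1 library. The part of other cells in the result was not tested.

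**Figure D3:**
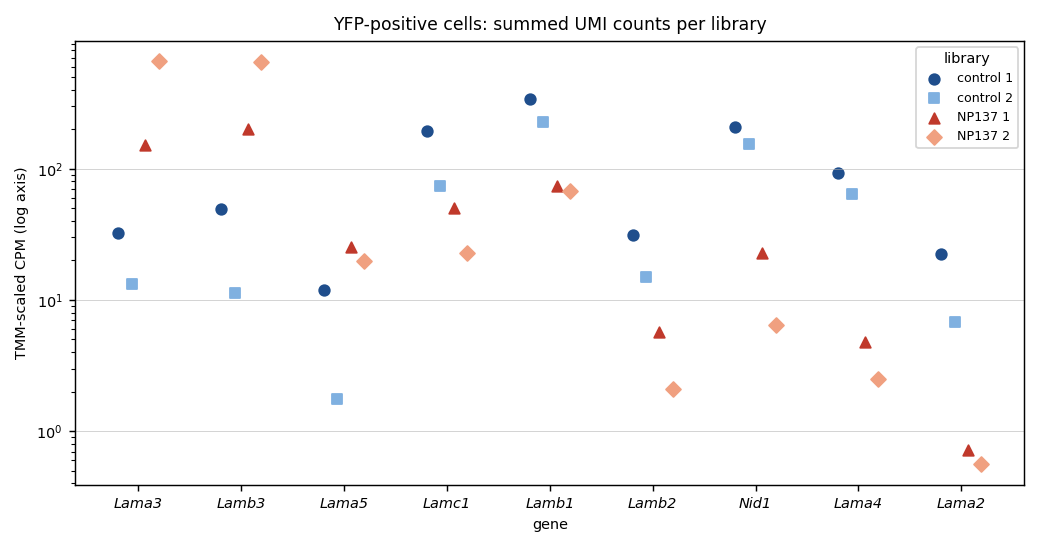
TMM-scaled CPM of each gene in YFP-positive cells, on a log axis, with 1 point per library. The 2 NP137 points lie above both control points for Lama3, Lama5 and Lamb3 and below them for the other 6 genes.

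Within control 1, the same order of chains was seen between cell states. Its 313 YFP-positive cells in the epithelial-like clusters held 332 CPM of Lama3 and 465 CPM of Lamb3, against 4.03 and 9.87 CPM in the 4110 others. For Lama4 the values were 3.23 against 108.4 CPM, and for Nid1 19.6 against 242 CPM. Control 1 thus held both patterns, in different YFP-positive clusters.

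In NP137 1, the 2548 epithelial-like YFP-positive cells held 171 CPM of Lama3 and 1.77 CPM of Lama4, against 47.5 and 14.5 CPM in the 643 others. Lama3 in epithelial-like YFP-positive cells was therefore lower in NP137 1 than in control 1, and it was 581 CPM in NP137 2. Control 2 had only 39 such cells, and no test between groups was made within this state.

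The log2 ratio of Lamb3 to Lamb1 UMIs sets the epidermal beta chain against the widespread one within each library. Over all YFP-positive cells it was -2.79 in control 1, -4.32 in control 2, 1.43 in NP137 1 and 3.28 in NP137 2. The difference was 5.91, and the exact permutation test (two-sided) gave p = 0.3333, the smallest that 2 libraries against 2 allow.

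By state, the ratio in epithelial-like clusters was 1.66 in control 1, 1.78 in NP137 1 and 3.28 in NP137 2. Control 2 had 39 such cells, under the limit of 50 for a ratio, with 250 Lamb3 and 23 Lamb1 UMIs. Lamb3 thus exceeded Lamb1 in this state in both controls too. In cluster 20, where 17.1% of cells held an Epcam UMI and 99.2% a Vim UMI, it was 0.25 in control 1 and 0.54 in NP137 1. In cluster 1 it was -6.48 in control 1 and -2.18 in NP137 1, and in cluster 16 it was -5.60 in control 2. Among cells with Xist UMIs alone, the ratio was -2.09 in control 1, 2.02 in NP137 1 and 3.29 in NP137 2, and among cells with Y-linked UMIs alone it was -4.27 in control 2 and 1.22 in NP137 1. Each kind of cell came from 1 control library only and was not split by cluster. The part of these kinds in the ratio was not tested.

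**Figure D4:**
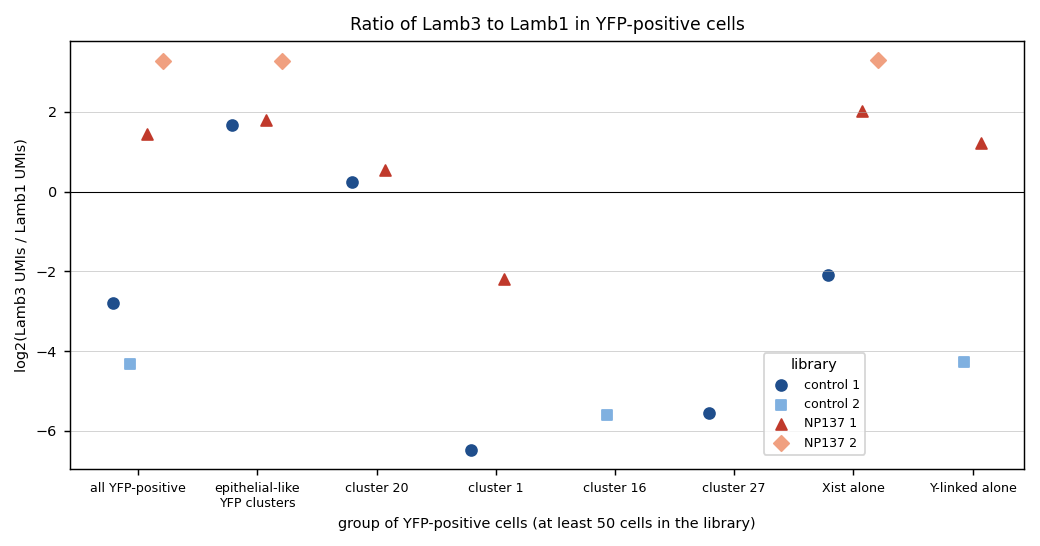
Log2 ratio of Lamb3 to Lamb1 UMIs in groups of YFP-positive cells, 1 point per library with at least 50 cells. Over all YFP-positive cells the controls lie at -2.79 and -4.32 and the NP137 libraries at 1.43 and 3.28, while within the epithelial-like clusters control 1 lies at 1.66.

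Cells were thinned to 2000 UMIs, which left out the shallower ones: 219, 15, 205 and 33 YFP-positive cells and 314, 4, 551 and 105 macrophage or monocyte-like cells, whose remaining number was 682 of 1233 in NP137 1. After thinning, Lama3 was detected in 3.50%, 2.25%, 21.9% and 55.4% of YFP-positive cells, and before thinning, over all cells, in 8.37%, 9.59%, 50.6% and 88.1%. The exact 95% Clopper-Pearson intervals of the thinned Lama3 shares were 2.96% to 4.10%, 1.48% to 3.29%, 20.4% to 23.4% and 52.2% to 58.7%. Lamb3 was detected in 4.66%, 2.17%, 28.8% and 52.5% after thinning (intervals 4.04% to 5.34%, 1.41% to 3.18%, 27.2% to 30.5% and 49.2% to 55.8%). The background in macrophage or monocyte-like cells at that depth was 0.615% to 1.86% for Lama3 and 0.615% to 2.30% for Lamb3. For Lama3 it was 0.901% in control 1 (interval 0.543% to 1.40%) and 0.615% in control 2 (0.0746% to 2.21%). The control shares of Lama3 stood above these values, with overlapping intervals in control 2. In control 2, neutrophil-like cells at 6.25% (3.27% to 10.7%) and endothelial-like cells at 5.33% (2.79% to 9.13%) stood above YFP-positive cells. Fibroblast-like cells at 1.69% and pericyte-like cells at 0% stood below them there. The Lama3 share of YFP-positive cells in control 2 was thus not above that of every class outside the epithelium.

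Lama4 was detected in 21.3%, 11.9%, 1.07% and 0.327% of thinned YFP-positive cells, against a background of 0.587% to 3.38%. That background was 0.587% in NP137 1 and 0.607% in NP137 2, so the NP137 shares lay near it. In NP137 1, YFP-positive cells outside the epithelial-like clusters reached 3.90%. The Lama4 intervals were 20.1% to 22.6%, 10.1% to 13.9%, 0.734% to 1.51% and 0.0674% to 0.952%. Nid1 was detected in 36.7%, 26.97%, 4.05% and 0.871%, against 0.293% to 3.03%. Lamb1 was detected in 54.4%, 39.2%, 13.1% and 11.9% of them, above its background of 1.03% to 4.98% in every library.

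Chains of a trimer were also compared cell by cell after thinning. Lama3 was detected in 43.9% of control 1 YFP-positive cells with Lamb3 and in 1.52% of those without. The values were 28% and 1.68% in control 2 (25 cells with Lamb3), 32.1% and 17.7% in NP137 1, and 69.3% and 40.1% in NP137 2. Lama4 was detected in 30.9% of control 1 cells with Lamc1 and 15.5% of those without, and in 17.5% and 10.7% in control 2. Over 4 pairs and 4 libraries, the first chain was more frequent beside its partner in 15 of 16 cases. The exception was Lamb1 beside Lamc1 in NP137 2, at 10.0% and 11.9%. Some of these cases rest on a few cells. After thinning, Lama4 was detected in 3 YFP-positive cells of NP137 2 and Lama5 in 4 of control 2. Cells of a library are not replicates, and no test was made. YFP-positive cells also mix states. In control 1, Lama3 was detected in 41.3% of thinned cells of the epithelial-like clusters and in 0.665% of the others. Pairs of genes outside the trimers were not compared, and the part of cell state in these values was not tested.

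In the other classes, no member passed an adjusted p of 0.05 by edgeR. In fibroblast-like cells, 7 members were tested and none had an unadjusted p under 0.05 (4.15% of all genes), with Lama4 at 274, 205, 275 and 216 and Nid1 at 425, 412, 246 and 564 TMM-scaled CPM. With the unnamed clusters of high fibroblast score added, an alternative chosen after seeing the data, Lama2 had a log2 fold change of -1.52 (unadjusted p by edgeR = 0.0289), against -0.61 without them. Lamb2 had -0.91 (unadjusted p by edgeR = 0.0179), against -0.31, where 4.1% of all genes had an unadjusted p under 0.05. Neither passed after adjustment (adjusted p = 0.837 for both). Cluster 13 made up 75.0% of this class in NP137 2 and 8.57% to 9.84% elsewhere. In endothelial-like cells, where 8.32% of genes had an unadjusted p under 0.05, Lamb2 stood at 79.5 and 70.0 in the controls and 27.1 and 33.6 in the NP137 libraries, a log2 fold change of -1.29 (SE 0.261, unadjusted p = 0.00162, adjusted p = 0.587). Lama5 stood there at 77.8 and 87.2 in the controls and 50.3 and 38.1 in the NP137 libraries, -0.91 (SE 0.253, unadjusted p = 0.00838, adjusted p = 0.587) on the log2 scale. The values of these 2 genes did not overlap between groups, as for 21.9% of genes on the lower side.

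In pericyte-like cells (3.8% of genes at an unadjusted p under 0.05), Lama2 stood at 96.0 and 123 in the controls and 75.0 and 34.2 in the NP137 libraries, a log2 fold change of -1.07 (SE 0.400, unadjusted p = 0.0363). In macrophage or monocyte-like cells (3.57%), Lamb1 stood at 24.9 and 17.7 in the controls and 8.16 and 8.13 in the NP137 libraries, -1.40 (SE 0.315, unadjusted p = 0.00424) on the log2 scale. Its level in this background class was lower in the libraries whose YFP-positive cells held less Lamb1. Lamc1 (log2 fold change -0.66, SE 0.260, unadjusted p = 0.0433) and Lamb3 (0.99, SE 0.395, unadjusted p = 0.0459) differed there in the same directions as in YFP-positive cells.

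Over all cells summed, where fewer cells of a type and less RNA per cell cannot be told apart, Lama3 stood at 24.3 and 42.2 in the controls and 92.8 and 114 in the NP137 libraries, 1.64 (SE 0.353, unadjusted p = 0.00621) on the log2 scale. Lamb3 stood at 38.5 and 43.9 in the controls and 126 and 116 in the NP137 libraries (1.55, SE 0.227, unadjusted p = 0.00118), and Lamb1 at 278 and 172 in the controls and 94.9 and 122 in the NP137 libraries (-1.05, SE 0.335, unadjusted p = 0.0270). An unadjusted p under 0.05 was reached by 6.49% of genes. DESeq2 called Lama3 (adjusted p = 0.0154) and Lamb3 (adjusted p = 0.000286) higher, among 1.76% of genes called in either direction.

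The NP137 difference was then compared between classes by an interaction term, which asks whether the log2 fold change in YFP-positive cells differs from that in another class. Against fibroblast-like cells, edgeR called 2.62% of 14567 genes, 2% lower and 0.625% higher in YFP-positive cells. Lama4 differed by -4.43 (SE 0.417, adjusted p = 5.36e-04), Lama2 by -3.63 (SE 0.496, adjusted p = 0.00387), Lamb2 by -2.29 (SE 0.481, adjusted p = 0.0326) and Lamb1 by -1.60 (SE 0.370, adjusted p = 0.0473) on the log2 scale. These 4 chains fell in YFP-positive cells relative to fibroblast-like cells, and Lama3 rose by 2.79 (SE 0.644, adjusted p = 0.0466). Fibroblast-like cells held 5, 2, 2 and 120 Lama3 UMIs, too few for a test within that class. The Lama3 level there was 1.52 to 6.43 CPM, against a background of 3.21 to 8.51 CPM in macrophage or monocyte-like cells. Lamb3 (2.94, SE 0.983, adjusted p = 0.241), Nid1 (-3.65, SE 1.35, adjusted p = 0.388), Lamc1 (-1.26, SE 0.596, adjusted p = 0.399) and Lama5 (-0.23, SE 1.33, adjusted p = 0.988) did not pass.

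At a finer clustering (Leiden resolution 2), which named more clusters fibroblast-like, Lama4 alone of these 5 passed; Lama2 had an adjusted p of 0.246, Lama3 of 0.293, Lamb1 of 0.128 and Lamb2 of 0.198. Lama3 was also lost with DESeq2 (adjusted p = 0.0583) and without control 1 (0.238), control 2 (0.115) or NP137 2 (0.491), and Lamb1 without control 1 (0.129). Against endothelial-like cells, where 0.545% of genes were called (0.464% lower and 0.081% higher), Lama4 was the member that passed, with a difference of -4.43 (SE 0.538, adjusted p = 0.0413), and it was lost without control 2 (adjusted p = 0.0888).

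The wider basement membrane was described through a list of 44 genes, of which 43 were found. In YFP-positive cells, 39 were tested: 10 were higher and 13 lower at an unadjusted p under 0.05, against 10.8% and 12.8% of all genes. None passed after adjustment by edgeR, and DESeq2 called 10 higher and 12 lower, against 7.05% and 8.95% of all genes. Their median log2 fold change was -0.59. The genes of smallest p on the higher side were Sdc1, a syndecan that binds laminin, at 249 and 215 in the controls and 946 and 1025 in the NP137 libraries, Itga2, a collagen and laminin receptor chain, at 16.6 and 19.1 in the controls and 60.9 and 117 in the NP137 libraries, and Agrn, the proteoglycan agrin, at 24.4 and 24.3 in the controls and 61.5 and 65.2 in the NP137 libraries, all in TMM-scaled CPM.

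On the lower side stood the collagen IV chains Col4a5, at 33.0 and 23.2 in the controls and 1.23 and 0.621 in the NP137 libraries, and Col4a6, at 7.79 and 8.196 in the controls and 0.0724 and 0 in the NP137 libraries. The third was Ntn1, which encodes the antibody's target netrin-1 and carries laminin-type domains, at 68.2 and 39.5 in the controls and 1.38 and 0.248 in the NP137 libraries (log2 fold change -5.97, SE 0.849, unadjusted p = 9.21e-04, adjusted p = 0.0601). NP137 binds the protein, so this transcript level is no check of the treatment. Of 2 genes chosen after their values were seen, Itgb4, an integrin chain of hemidesmosomes, stood at 124 and 60.8 in the controls and 377 and 552 in the NP137 libraries. The other, Col17a1, a transmembrane collagen, stood at 110.0 and 24.6 in the controls and 370.5 and 742 in the NP137 libraries.

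In fibroblast-like cells, 28 of the list were tested, with 0 higher and 2 lower at an unadjusted p under 0.05, against 4.15% of all genes in either direction. The lowest p belonged to Col15a1, a collagen beneath vessel and muscle basement membranes, at 205 and 288 in the controls and 57.9 and 86.1 in the NP137 libraries (-1.74, SE 0.326, unadjusted p = 0.00185), followed by the membrane protease Mmp14 (log2 fold change -0.90) and the netrin Ntn4 (-0.89). On the higher side the smallest p belonged to Sdc4 (1.502) and Cd151 (0.52). The counts higher and lower were 1 and 3 of 30 in endothelial-like cells (8.32% of all genes in either direction) and 1 and 2 of 28 in pericyte-like cells (3.8%). They were 1 and 5 of 30 in macrophage or monocyte-like cells (3.57%) and 2 and 7 of 43 over all cells (6.49%).

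Genes whose pattern was most like each member were found by Pearson's r of log2(CPM + 1) over 28 columns (7 classes in 4 libraries, which share libraries and depth), among 6316 genes, as a description. Lama3 was most like Itgb4 (0.90) and Gpx2 (0.86), and Lamb3 most like Ggct (0.89), Col17a1 (0.88) and Gpx2 (0.88). Lama2 was most like Adamts2, Col6a2 and Col6a1 (0.96 to 0.97), Lamb1 like Hspg2, Synpo and Wwtr1 (all 0.96), and Lamb2 like Ebf1, Osmr and Rhoj (0.94 to 0.95). Lama4 was most like Tspan6, Sgce and Rhoj (all 0.95), Lama5 like Bcr, Tspan12 and Rell1 (0.84 to 0.85), Lamc1 like Sptbn1, Cdr2l and Kctd17 (all 0.94) and Nid1 like Msrb3, Rhoj and Prss23. Between members, r was 0.87 for Lama3 with Lamb3, 0.97 for Lama4 with Nid1, 0.94 for Lamc1 with Nid1 and -0.58 for Lama4 with Lamb3.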

How the data were processed

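Droplet single-cell 3′ libraries of skin tumours, 4 in all, were deposited as matrices of raw UMI counts. The authors made the counts with 10x Genomics software 3.0.2, per the file headers. The submitters' processing notes name the build mm10 and Seurat 3.1.5. Aligner settings, the cell-calling rule and the use of strand in counting were not given in the sources used here.

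Library totals ran from 69517664 to 149021188 UMIs over 8328 to 18146 barcodes. Cells with at least 200 genes and at most 20% mitochondrial UMIs were kept, the highest doublet scores (0.8% per 1000 cells) were removed, and cells were clustered in scanpy 1.11.5 (2000 variable genes, 30 components, 15 neighbours, Leiden resolution 1). A cluster was YFP-positive if at least 50% of its cells held a YFP UMI. Within each class, the counts of a library were added up and tested with edgeR 4.0.16 (TMM, quasi-likelihood, filter on low counts) in R 4.3.3 at an adjusted p of 0.05, with DESeq2 1.42.0 as an alternative. An interaction model compared classes, with library sums as the samples. Single values used exact permutation tests over the 6 assignments of samples. Shares of cells carry 95% Clopper-Pearson intervals, and all intervals cover counting error only. The tests were checked on simulated data.

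Every member is named whatever its p. From the basement membrane list, the 3 genes of smallest p in each direction are named in YFP-positive and fibroblast-like cells, and for likeness the 3 of highest r with a mean of at least 20 CPM. Some items that these rules would name, and part of the genotype, are not reported here. The members and lists were chosen with earlier results of these data known. Alternatives were other filters, doublets kept, other clusterings and YFP rules, and each sample left out.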

Additional observations from a re-analysis of the deposited data

Results flagged for a closer look

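The NP137 difference in YFP-positive cells was tested against that in another class, and the term passed an adjusted p of 0.05 by edgeR for these genes. Against fibroblast-like cells the log2 difference was -4.4326 for Lama4, -3.6334 for Lama2, -2.2883 for Lamb2, -1.599 for Lamb1 and 2.79 for Lama3. Against endothelial-like cells it was -4.4323 for Lama4. Fibroblast-like cells held Lama3 at 1.52 to 6.43 CPM, against a background of 3.21 to 8.51 CPM in macrophage or monocyte-like cells. Of the 5 fibroblast-like differences, Lama4 alone passed at Leiden resolution 2 (adjusted p by edgeR 0.246 for Lama2, 0.293 for Lama3, 0.128 for Lamb1 and 0.198 for Lamb2), and the endothelial-like one was lost without control 2 (0.0888). The clusters that hold each class differ between libraries, for YFP-positive cells and, in NP137 2, for fibroblast-like cells, and their part in these differences was not tested.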

How the results depend on the processing

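In YFP-positive cells all 9 genes kept their direction under each of 15 alternatives, with log2 fold changes from -5.03 to -2.82 for Lama4, 2.73 to 4.95 for Lama3, 2.74 to 5.26 for Lamb3, -2.26 to -1.65 for Lamb1, -5.11 to -3.01 for Lama2, -3.50 to -1.86 for Lamb2, -4.89 to -2.63 for Nid1 and -2.62 to -1.02 for Lamc1. For Lama5 they ran from 0.91 without control 2 to 3.69 without control 1. DESeq2 called the other 8 genes in YFP-positive cells and not Lama5 (adjusted p by DESeq2 = 0.165). The number of genes called there, 1, became 2265 with DESeq2, 1291 without the filter on low counts, 18 with the basement membrane genes kept for clustering, 7 with clusters of at least 30% YFP cells, 0 with doublets kept, 0 for cells with a YFP and a Cdkn2a UMI, and 0 to 389 with a sample left out. With sample number as a replicate block it was 0; the numbers pair nothing in the labels, and the within-group differences correlated at 0.0451.

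The count of 0 became, with DESeq2, 12 in fibroblast-like, 8 in pericyte-like and 13 in macrophage or monocyte-like cells and 292 over all cells; without the filter it became 191, 126 (endothelial-like), 61 and 89. With a sample left out it was 0 to 8 in fibroblast-like, 0 to 62 in endothelial-like, 0 to 35 in pericyte-like, 0 to 1 in macrophage or monocyte-like cells and 0 to 5 over all cells. The 382 genes of the fibroblast-like interaction became 716 with DESeq2, 1350 without the filter, 17 at resolution 2 and 452 to 1560 with a sample left out. The 74 of the endothelial-like interaction became 492, 580 and 104 to 417. Of 27 genes most like a member, 13 stayed with Spearman's rho.

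Directions turned where values were small or not called. With a sample left out, log2 fold changes ran in fibroblast-like cells from -0.17 to 0.253 for Lama4, -0.62 to 0.0794 for Lamb2 and -0.771 to 0.436 for Nid1. In endothelial-like cells they ran from -0.405 to 0.395 for Lama4, -0.438 to 0.164 for Lamc1, -1.15 to 0.468 for Lama3 and -0.355 to 0.486 for Nid1. For Lamb2 in macrophage or monocyte-like cells the range was -0.918 to 0.671, and over all cells it was -1.10 to 0.777 for Lama5, -0.942 to 0.0334 for Lama2, -1.17 to 0.281 for Nid1 and -0.918 to 0.0195 for Lama4. For the Lama2 interaction with endothelial-like cells it was -3.74 to 4.25. With doublets kept, Lama4 turned to -0.302 in fibroblast-like cells, Lama3 to 0.981 and Nid1 to -0.016 in endothelial-like cells, and Lama5 to 0.321 in macrophage or monocyte-like cells. In fibroblast-like cells Lama4 turned to -0.165 at resolution 2 and -0.288 with unnamed clusters added (chosen after seeing the data), and Nid1 to 0.0018 without the filter, 0.325 with 500 genes and 10% mitochondrial UMIs and 0.0766 with the list's genes kept. Lama5 turned in macrophage or monocyte-like cells to 0.215 (DESeq2), 0.0716 (no filter) and 0.0606 (replicate block), over all cells to -0.163 (replicate block), and in the fibroblast-like interaction to 0.159 (DESeq2) and 1.66 (resolution 2). The causes were not tested. Where a sample is left out, the lone sample is assumed to vary like the others. Epithelial-like cells without the tumour label were not tested between groups, with 46 cells in NP137 2.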
